A study of Mus musculus with 52 samples.

Results

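The constitutive proteasome genes were described in single cells from mouse bone marrow. Members were the protein-coding genes whose symbols begin with Psma, Psmb, Psmc, Psmd, Psme, Psmf or Psmg, leaving out the inducible catalytic subunits Psmb8, Psmb9 and Psmb10, gene models named Gm and pseudogenes. This rule found 47 of the 28786 genes in the deposited table, of which 45 have a known part in the complex. The other 2 were Psmc3ip, a meiotic recombination factor that the rule found by the start of its symbol, and Psme2b, a close copy of the activator gene Psme2.

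The study profiled 52 bone marrow cells, labelled primed HSCs (haematopoietic stem cells), with Smart-seq2, which copies whole transcripts of 1 cell per well into cDNA without molecular identifiers. All cells came from C57BL/6 mice of the genotype Cd4-cre;R26Tdtomato, aged 6 to 8 weeks, and no untreated or control group is given. Here Cre driven by Cd4 regulatory sequence removes a stop from a tdTomato reporter, which then marks cells with a history of Cd4 promoter activity. The marrow came from femora and tibiae, with red cells removed by ammonium chloride. Since the cells share 1 label and the animals are not told apart, they were treated as 1 sample. Cells are not replicates of a condition, no p-value was computed, and every value after ± is the standard deviation (SD) over cells.

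The proteasome is the protease that degrades most proteins tagged with ubiquitin. Its core particle is a barrel of stacked rings, in which alpha subunits form the gate and beta subunits carry the peptidase sites. The regulatory particle sits on the barrel: its base holds the ATPases that unfold and feed in the substrate, and its lid removes the ubiquitin chain. Activator proteins of the Psme group can cap the barrel in place of the regulatory particle. Dedicated chaperones build the core and the base. Blood stem cells are known for low protein synthesis and tight control of protein quality, and erythroid precursors for extensive protein turnover as they mature.

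After cells 5, 10 and 12 were left out for low depth or a high mitochondrial share, 49 cells remained, with 85519 to 12446477 reads each (median 2187580). Levels are given as CPM, the reads of a gene scaled to 1000000 reads of the cell. Cells were described by the level of 2 genes: Cd34, a surface protein of stem and progenitor cells, and Klf1, the transcription factor of the erythroid lineage. At the cut of 10 CPM, 14 cells were Cd34-high and 35 Cd34-low, with no cell between 5 and 20 CPM. The highest Cd34-low cell had 1.66 CPM and the lowest Cd34-high cell 91.0 CPM. Klf1 was split at its median of 735.5 CPM into 25 cells at or above and 24 below, a cut with 7 cells within 10% of it. The splits by Cd34 and by Klf1 largely coincide, since only 1 cell, cell 2, was Cd34-high and at or above the Klf1 median. These classes are ranges of 1 gene, not cell types.

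The label was checked against markers. The summed level of 8 HSC genes had a median of 1284 CPM in Cd34-high and 3.21 CPM in Cd34-low cells, while 6 erythroid progenitor genes summed to a median of 2086 and 11476 CPM. By these medians the Cd34-low cells, 35 of 49, were high in erythroid progenitor genes and low in HSC genes, but single cells overlapped: in Cd34-low cells the HSC sum reached 1390 CPM and the erythroid sum went down to 230 CPM (cell 34), below the lowest Cd34-high cell at 412 CPM. Other lists moved with Cd34 too. The 6 neutrophil and monocyte genes, of which Elane had no read, summed to 190 to 2854 CPM (median 719) in Cd34-high cells and to 0 to 46058 CPM (median 1.75) in Cd34-low cells. The 4 T cell genes summed to a median of 70.9 CPM in Cd34-high cells, at most 412, and of 0 in Cd34-low cells, at most 225. The part of these genes in the differences by Cd34 was not tested. The T cell genes Cd3e, Cd4 and Trbc2 had no read in any of the 49 cells. By the rule of 3 counts of the total, 0 of 49 limits cells in which such a read could be found to 6.12%, and sets no limit on cells that express the gene. All T cell list reads were of Lat.

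4 cells were set apart, 2 for unusual content and 2 for a close likeness to another cell. Cell 9 was the shallowest kept cell and held 7741 CPM of B lineage genes. Cell 34 held 46058 CPM of neutrophil and monocyte genes, with Klf1 and Cd34 both at 1.66 CPM. The closest cell to either had a correlation of log2 levels of 0.325, below the median of 0.402 over all pairs of cells. Cell 13 and cell 6 (0.919) and cell 23 and cell 25 (0.710) were the 2 most alike pairs of the 1176, and the next pair stood at 0.666. Cells 13 and 23 held ordinary subunit sums of 11170 and 11629 CPM. All 4 were Cd34-low, and results that rest on them are given with and without them.

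Promoter stretches are shown for 4 genes on which the results below turn: the beta subunit gene Psmb3, the catalytic subunit genes Psmb5 and Psmb6, and the activator gene Psme3. Each is the exon-free part of the 250 bases before the RefSeq start site (GRCm38.p6), written 5′ to 3′ along the gene. Capitals mark the core of the antioxidant response element (TGACNNNGC), the element read by Nfe2l1 and its relatives, or a CCAAT box on either strand (CCAAT or ATTGG).
Psmb3, chr11:97703184-97703398, plus strand: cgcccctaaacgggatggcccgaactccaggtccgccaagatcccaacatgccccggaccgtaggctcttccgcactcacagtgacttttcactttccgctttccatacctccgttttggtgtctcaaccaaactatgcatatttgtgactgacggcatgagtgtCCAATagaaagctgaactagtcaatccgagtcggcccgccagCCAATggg
Psmb5, chr14:54618023-54618245, minus strand: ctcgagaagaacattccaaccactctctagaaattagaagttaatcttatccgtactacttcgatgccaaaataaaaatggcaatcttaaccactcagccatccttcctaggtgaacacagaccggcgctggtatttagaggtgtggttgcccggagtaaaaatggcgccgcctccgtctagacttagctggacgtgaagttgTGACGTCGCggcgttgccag
Psmb6, chr11:70525107-70525356, plus strand: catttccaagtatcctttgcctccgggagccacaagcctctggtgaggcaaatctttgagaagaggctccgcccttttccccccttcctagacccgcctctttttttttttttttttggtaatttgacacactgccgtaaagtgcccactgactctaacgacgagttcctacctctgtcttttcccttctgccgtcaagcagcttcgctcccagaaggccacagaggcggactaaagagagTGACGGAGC
Psme3, chr11:101315963-101316212, plus strand: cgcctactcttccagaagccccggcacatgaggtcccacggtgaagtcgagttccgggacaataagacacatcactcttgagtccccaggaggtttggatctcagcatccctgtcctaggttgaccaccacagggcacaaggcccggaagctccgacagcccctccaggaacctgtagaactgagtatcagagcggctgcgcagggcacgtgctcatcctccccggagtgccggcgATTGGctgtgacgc
Psmb5 and Psmb6 each held the antioxidant element core, starting 47 and 9 bases before the start site, and Psmb3 held 2 CCAAT boxes, 85 and 43 bases before it. Over the 39 members with a RefSeq promoter, searched on both strands, the antioxidant core was found in 5 (12.8%): Psmb5, Psmb6, Psmc6, Psmd9 and Psmd12. Of the promoters of 27025 genes, 11.5% held it. A CCAAT box was found in 14 members (35.9%, against 37.5% of all genes) and a GC box (GGGCGG) in 21 (53.8%, against 35.4%). CACGTG was found in 3 (7.69%, against 6.86%) and TATAAA in 3 (7.69%, against 14.3%). A match describes the letters only.

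Most subunit genes were read in most cells. A read was found in at least 50% of cells for 45 of the 47 members, in at least 45 cells for 35 of them, and in all 49 cells for 6 (Psma1, Psma2, Psma7, Psmb1, Psmb6 and Psmc3). Together the 45 subunit genes took a median of 1.01% of a cell's reads, from 0.447% in cell 34 to 1.54% in cell 9. 2 members did not pass the filter of a mean of 5 CPM and a read in 10 cells. Psma8, an alpha subunit of the testis, was read in 9 cells, all Cd34-low, and cell 34 held its highest level of 348 CPM. For the 14 Cd34-high cells, 0 cells with a read allows, by the same rule of 3, a share with a read of up to 21.4%. Psmb11, the catalytic subunit of the thymic cortex, had 26 reads in 10 cells and a mean of 0.160 CPM. The processed pseudogene entries of the family, 3 in number, had 0 reads.

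Compared between genes per kilobase of transcript, core genes had a higher summed level than the base and lid genes that the symbol rule found. Shares and ranks per kilobase here and below depend on the transcript length taken for each gene. The subunits Adrm1 and Sem1 carry other symbols and are not counted here. Of the summed CPM per kilobase of core, base and lid genes in a cell, the core took 62.5% ± 7.88, the base 20.9% ± 4.66 and the lid 16.6% ± 4.82 (SD, n = 49 cells). The core particle holds each of its subunits in a pair of copies, whereas base and lid subunits are present once per regulatory particle. Cell 34 stood outside this range, with 96.5% for the core against 77.5% in the next highest cell. Its core sum was 3672 CPM, but its base sum was 222 CPM, its lid sum 23.2 CPM and its activator sum 9.94 CPM. The core sum of this cell with neutrophil and monocyte genes lay within the range of the other cells. Its lid sum was the lowest of the 49, and so was its sum of the alpha genes, at 472 CPM. Its core sum thus lay mostly in beta genes, among them Psmb3 at 1381 CPM.

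Among the alpha subunits, which form the outer rings and gate, Psma7 was the highest per length (440 CPM per kilobase ± 189) and Psma2 the lowest (99.9 ± 47.9). These ranks rest on the lengths used, 2911 bases for Psma2 and 1165 for Psma4. In CPM, Psma2 (291) lay above Psma4 (202), and Psma3 (434) above Psma7 (402). Alpha subunits included the steadiest members. The coefficient of variation (SD over mean) was 0.422 for Psma3, 0.429 for Psma7 and 0.449 for Psma6, the 3 lowest of the members. Among the beta subunits, Psmb6 was the highest per length (482 CPM per kilobase ± 358) and Psmb7 the lowest (94.2 ± 63.7). Psmb5, Psmb6 and Psmb7 carry the chymotrypsin-like, caspase-like and trypsin-like activities. Psmb6 was read in all 49 cells, with no cell below 106 CPM, while Psmb5 ranged from 0 to 690 CPM.

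In the base, the ATPase gene Psmc3 was the highest per length (222 CPM per kilobase ± 114) and the ATPase gene Psmc6 the lowest (60.5 ± 40.7). In the lid, Psmd7, the partner of the deubiquitinase Psmd14, was the highest (221 ± 105) and Psmd11 the lowest (79.7 ± 54.0). Psmd11 was divided by 2848 bases, and in CPM it (227) lay above Psmd13 (167). The activators spread widely. Psme1, a subunit of the activator that helps make peptides for antigen presentation, stood at 267 ± 156 CPM per kilobase, and Psme4, the large nuclear activator PA200, at 4.64 ± 9.48. Psme4 had a read in 31 of 49 cells (63.3%, exact 95% Clopper-Pearson interval 48.3 to 76.6, counting error only). Among the chaperones of core assembly Psmg2 was the highest (145 ± 233, with its highest level in cell 9) and Psmg3 the lowest (58.6 ± 53.1). Among those of base assembly Psmd10 was the highest (54.5 ± 50.9) and Psmd9 the lowest (29.8 ± 31.8). In CPM, Psmd5 (202, divided by 4397 bases) lay above Psmd10 (77.9). Psmf1, which binds the core and can inhibit it, stood at 24.6 ± 24.6 CPM per kilobase.

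Proteasome genes took a smaller share of the reads, on average, in Cd34-high cells. The summed level of the 45 subunit genes was lowest at 4637, at the median 7136 and highest at 12344 CPM in the 14 Cd34-high cells, against 4472, 10738 and 15353 CPM in the 35 Cd34-low cells. The classes overlapped at both ends, but 13 of the 14 Cd34-high cells lay below the Cd34-low median. The means were 7655 ± 2183 and 10887 ± 2100 CPM, a ratio of 0.703, and 0.701 when cells 9, 13, 23 and 34 were left out. Over the 49 cells the sum had a Spearman correlation of -0.567 with Cd34 level, a description of cells of 1 sample. Other measures moved with it: Cd34-high cells were shallower (median 1083630 reads against 2556760), and the sum of 8 mitosis genes was 495 ± 698 CPM in them against 1925 ± 1268. The sum itself had a correlation of 0.341 with total reads, 0.443 with the number of genes detected and 0.445 with the mitosis genes. With every cell thinned to 85519 reads, the correlation with Cd34 was -0.552. Thinning keeps a gene's share of reads on average, so it cannot decide the part of depth. The parts of depth and of the mitosis genes in the result were not tested.

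**Figure D1:**
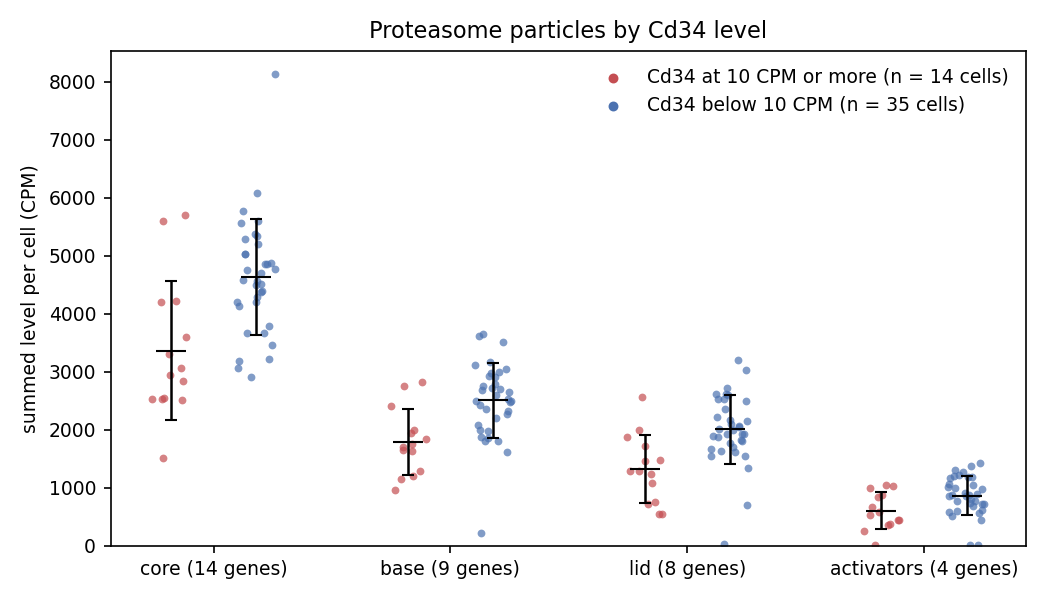
Summed level per cell (CPM, vertical axis) of the genes of the core (14), base (9), lid (8) and activators (4), in Cd34-high (red, 14 cells) and Cd34-low (blue, 35 cells) cells. Points are cells and bars show the mean ± SD over cells. In each group of genes the mean of Cd34-high cells is lower and the points overlap, and the highest core point is cell 9 at 8127 CPM.

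Each particle was lower in Cd34-high cells by a similar factor, as the plot of summed levels by Cd34 level shows. The core summed to 3361 ± 1200 CPM in Cd34-high and 4624 ± 1000 in Cd34-low cells. The base summed to 1793 ± 568 and 2504 ± 652 CPM, the lid to 1324 ± 588 and 2003 ± 601, and the activators to 602 ± 317 and 864 ± 333. On the log2 scale the differences were -0.46 for the core, -0.48 for the base, -0.60 for the lid and -0.52 for the activators. The core's share of the summed CPM per kilobase of core, base and lid genes was 63.2% ± 8.99 in Cd34-high and 62.2% ± 7.51 in Cd34-low cells, a gap smaller than either SD.

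Gene by gene, 23 of the 45 members that passed the filter were at least 1.5-fold lower in mean CPM in Cd34-high cells, where 29.3% of the 9158 genes were. As much higher were 0 members, where 29.5% of genes were. The members that passed the filter include Psmc3ip and Psme2b, both outside the complex and both among the 23, and leave out Psma8 and Psmb11. Of the 45, 41 had a log2 ratio below 0, against 50% of all genes, and their median was -0.59 against -0.00043. With no sample to replicate these classes, the counts have no test. Without cells 9, 13, 23 and 34, 21 members were lower (30.1% of genes), 18 of them among the 23, and 0 higher (29.4% of genes). Psma1, Psmb1, Psmc5, Psmd12 and Psme2b left the count, and Psmd6, Psmd7 and Psmd13 entered it.

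**Figure D2:**
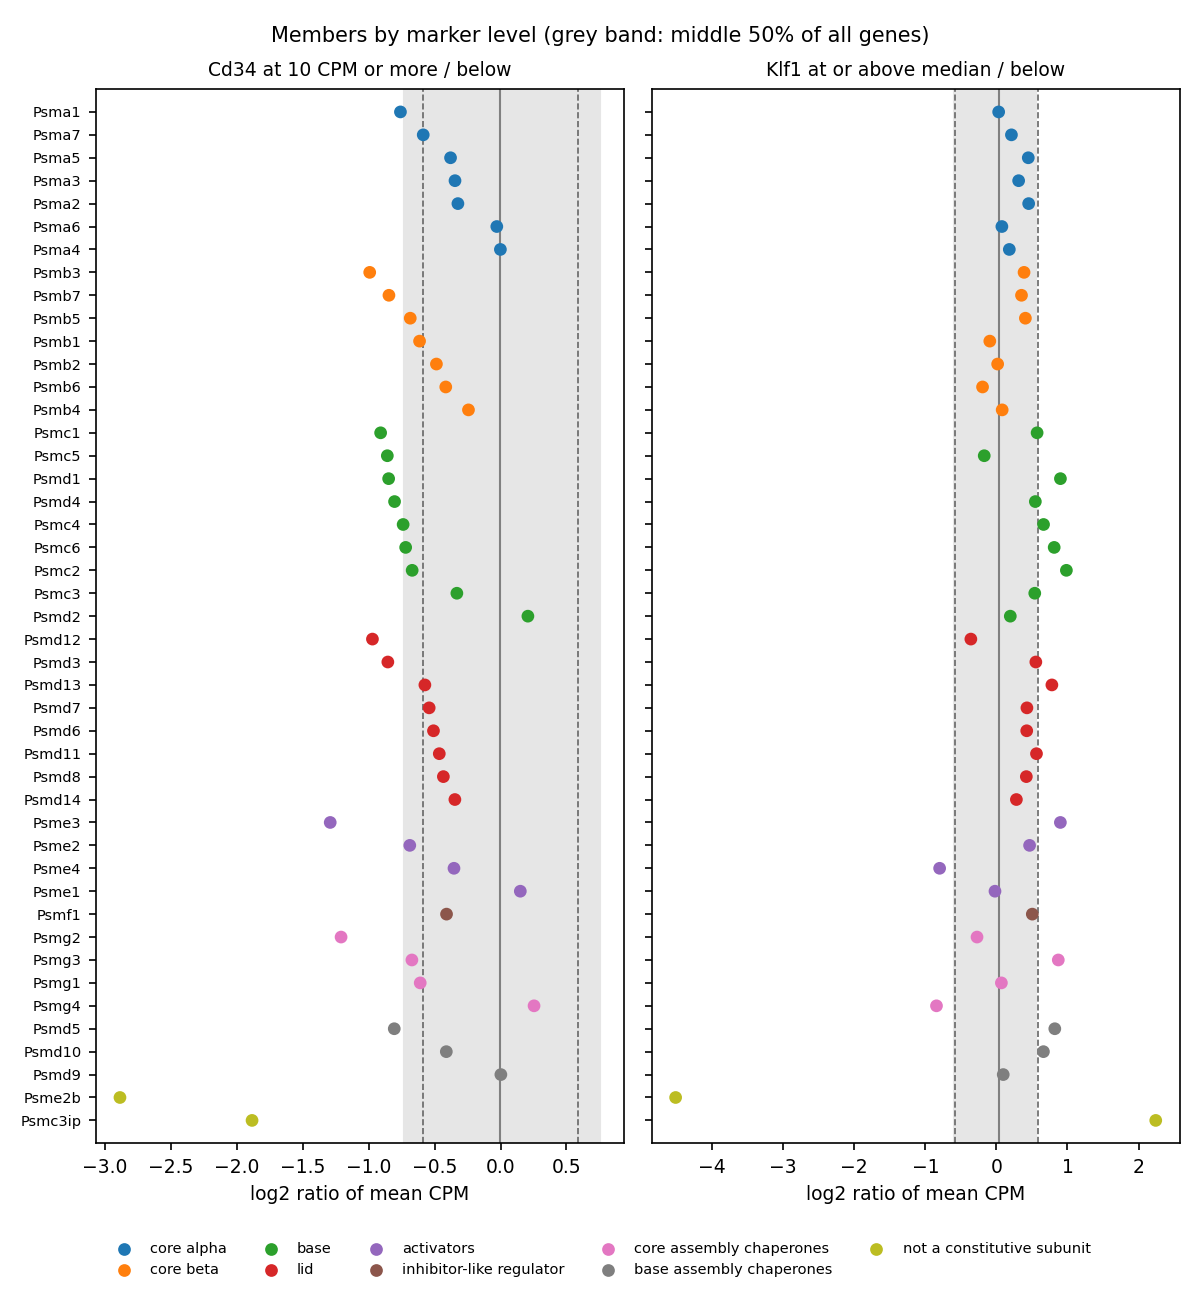
log2 ratio of mean CPM for each member that passed the filter, Cd34-high over Cd34-low cells (left) and Klf1 at or above its median over below (right), coloured by role. The grey band spans the middle 50% of all 9158 genes, the grey line is their median and dashed lines mark 1.5-fold. On the left 41 of 45 points lie below 0 (50% of all genes), and on the right 36 of 45 lie above 0 (51.9% of all genes).

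Most base genes passed the 1.5-fold rule. The log2 difference of the base sum, -0.48, lay between those of the core (-0.46) and the lid (-0.60). Of the 9 base members 7 were at least 1.5-fold lower in Cd34-high cells, where 29.3% of all genes were. The 7 were the ATPases Psmc1, Psmc2, Psmc4, Psmc5 and Psmc6, the scaffold Psmd1 and the ubiquitin receptor Psmd4. The count was 6 without cells 9, 13, 23 and 34 (30.1% of genes), as Psmc5 left. Psmd1 (chr1:86064387-86139151, GRCm38) ranged from 0 through a median of 155 to 567 CPM in Cd34-high cells, and from 0 through 284 to 738 CPM in Cd34-low cells. It lay below the Cd34-low median in 11 of the 14 Cd34-high cells. The other scaffold, Psmd2 (chr16:20651652-20663414), went the other way in its mean, 543 ± 293 CPM against 470 ± 274, with wide overlap and a log2 ratio of 0.21. The ratios of the 2 large scaffolds thus lay on opposite sides of 0.

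In the core, 2 of the 7 alpha genes (Psma1 and Psma7) and 4 of the 7 beta genes (Psmb1, Psmb3, Psmb5 and Psmb7) were at least 1.5-fold lower in Cd34-high cells. The alpha share, 28.6%, is near the 29.3% of all genes. The counts were 1 and 3 without cells 9, 13, 23 and 34, as Psma1 and Psmb1 left. Psma5 had a log2 ratio of -0.38. Psmb3 (chr11:97703399-97713500), a structural beta subunit, ranged from 0 through a median of 190 to 463 CPM in Cd34-high cells. In Cd34-low cells it ranged from 11.7 through 352 to 1381 CPM, the last in cell 34. Its log2 ratio was -0.99, and -0.92 without cells 9, 13, 23 and 34. Psma4 and Psma6 hardly differed, with log2 ratios of -0.0012 and -0.03. Psma4 had a median of 193 CPM in Cd34-high and 195 CPM in Cd34-low cells.

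The catalytic genes differed among themselves. Psmb7 (chr2:38588036-38644087) had a mean of 69.2 ± 44 CPM in Cd34-high and 125 ± 77.8 in Cd34-low cells, a log2 ratio of -0.85, and 12 of 14 Cd34-high cells lay below the Cd34-low median. Psmb5 (chr14:54614119-54618022) ranged from 0 through a median of 85.6 to 690 CPM in Cd34-high cells and from 1.66 through 287 to 624 CPM in Cd34-low cells. The Cd34-high cells held both the highest and the lowest Psmb5 levels, and the log2 ratio of means was -0.68. Psmb6 (chr11:70525367-70527858) stood at 310 ± 183 and 414 ± 315 CPM, a log2 ratio of -0.42, which was -0.19 without cells 9, 13, 23 and 34. Its Cd34-low mean rests in part on cell 9, with 1976 CPM.

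In the lid, 2 of 8 genes were at least 1.5-fold lower, Psmd3 (-0.85 on the log2 scale) and Psmd12 (-0.97), a share of 25% against 29.3% of all genes. All 8 were below 0, Psmd8 at -0.43. The count was 4 without cells 9, 13, 23 and 34, namely Psmd3 (-0.95), Psmd6 (-0.59), Psmd7 (-0.61) and Psmd13 (-0.64). The Psmd12 ratio rests on cell 9, which held 2526 CPM where the next cell held 342.3 CPM, and its ratio was -0.51 without the 4 cells. Psmd14, the lid's deubiquitinase, had the smallest difference of the lid, -0.35.

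The activators differed among themselves. Psme3 (PA28 gamma, a nuclear activator; chr11:101316213-101323537) showed the largest Cd34 ratio among the genes of the complex that passed the filter. It ranged from 0 through a median of 198 to 384 CPM in Cd34-high cells and from 9.94 through 378 to 747 CPM in Cd34-low cells. Of the 14 Cd34-high cells 13 lay below the Cd34-low median, and the highest Cd34-high cell stood near that median. The means were 152 ± 131 and 374 ± 211 CPM, a log2 ratio of -1.29, and -1.32 without the 4 cells. Psme2 was also lower (105 ± 72.9 against 169 ± 76.2 CPM, -0.69), in 13 of 14 cells below the Cd34-low median. Its partner Psme1, the other subunit of the same activator, had a mean of 320 ± 245 against 288 ± 138 CPM, a log2 ratio of 0.15, but a median of 238 against 302 CPM, with 9 of 14 Cd34-high cells below the Cd34-low median. The 2 highest levels of Psme1, 819 and 775 CPM, lay in Cd34-high cells 47 and 7, so its mean and median pointed in opposite directions. The low activator Psme4 stood at 24.96 ± 56.7 and 32.2 ± 64.1 CPM.

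**Figure D3:**
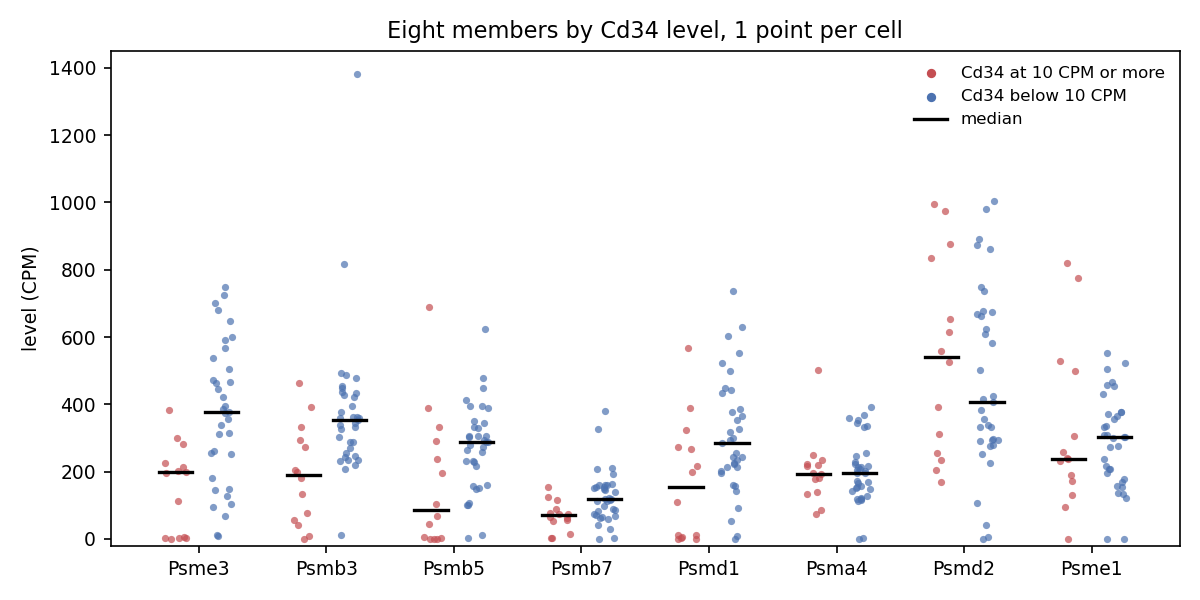
Level per cell (CPM, vertical axis) of 8 members in Cd34-high (red) and Cd34-low (blue) cells, with black bars at the medians. Psme3, Psmb3, Psmb5, Psmb7 and Psmd1 have lower medians in Cd34-high cells (for Psme3 198 against 378 CPM), as does Psme1 (238 against 302 CPM) although its mean is higher, while Psma4 has close medians and Psmd2 a higher one in Cd34-high cells (542 against 406 CPM).

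Among the chaperones of core assembly Psmg1, Psmg2 and Psmg3 were at least 1.5-fold lower in Cd34-high cells and Psmg4 was not, with 46.7 ± 38.6 against 39.02 ± 62.2 CPM (log2 ratio 0.25). Psmg4 was the highest ratio of the members, and 0.58 without cells 9, 13, 23 and 34. Psmg2 was at -1.21, but -0.82 without those cells, since cell 9 held 1754 CPM. Of the base chaperones Psmd5 was lower (-0.81), Psmd10 stood at -0.41 and Psmd9 at 0.0024. Psmf1 was at -0.41. The largest ratios of the members belonged to the 2 genes outside the complex. Psmc3ip stood at 6.02 ± 13.6 against 24.9 ± 27.03 CPM (-1.88). Psme2b stood at -2.89, with 1099 CPM in cell 9, where Psme2 was at 0, and without cells 9, 13, 23 and 34 it had a mean of 3.33 CPM and did not pass the filter. Reads of these near-identical copies are split by a model, so the levels of both are uncertain.

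Proteasome genes took a larger share of the reads, on average, in cells at or above the Klf1 median. Cells at or above the Klf1 median had a summed subunit level of 7439, 10708 and 13822 CPM at the lowest, median and highest cell, and cells below it 4472, 8176 and 15353 CPM. The means were 11029 ± 1617 and 8854 ± 2917 CPM, so the spread was wider in the low class. The correlation of the sum with Klf1 was 0.464. Klf1 itself had a correlation of 0.515 with total reads and 0.566 with the mitosis genes, and their part was not tested. Ordered by Klf1, the sum was 7926 ± 2934 CPM in the lowest 16 cells, 10998 ± 1731 in the next 17 and 10902 ± 1645 in the highest 16. The step lay between the lowest 16 cells, which held 13 of the 14 Cd34-high cells, and the next 17, which held 0. Above that step the means differed by less than the SD.

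**Figure D4:**
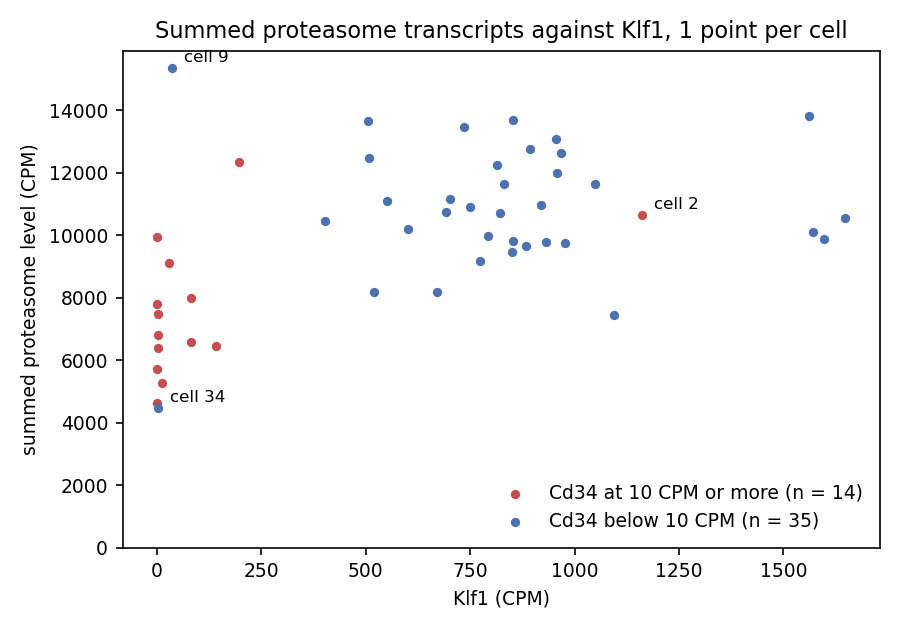
Summed level of the 45 subunit genes (CPM, vertical axis) against Klf1 (CPM, horizontal axis), 1 point per cell, Cd34-high red and Cd34-low blue. Cells at 402 CPM of Klf1 or more lie between 7439 and 13822 CPM with no visible trend, and cell 9 and cell 34, with little Klf1, hold the highest and the lowest sum.

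Within the 35 Cd34-low cells the sum had a correlation of -0.0109 with Klf1 and -0.0824 with the mitosis genes. Within the 14 Cd34-high cells the correlations were 0.373 with Klf1 and 0.719 with the mitosis genes. Of the 15 cells below 200 CPM of Klf1, 13 were Cd34-high and the other 2 were cells 9 and 34, so Cd34-low cells hardly span low Klf1, as the plot of the sum against Klf1 shows. The parts of Klf1 and Cd34 in the relation over all cells cannot be told apart.

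Of the 45 members, 10 were at least 1.5-fold higher at or above the Klf1 median, where 24% of genes were, and 3 were as much lower, where 25.4% were. The first share is near the background and is not read as a result about the members. The median log2 ratio was 0.41, against 0.04 over all genes. The 10 were the base genes Psmc2 (0.98), Psmc4, Psmc6 and Psmd1 (0.90), the lid gene Psmd13, the activator Psme3 (0.90), the chaperones Psmd5, Psmd10 and Psmg3, and Psmc3ip (2.24). No core gene was among them. The 3 lower were Psme2b (-4.51, resting on 1099 CPM in cell 9 and 436 CPM in cell 34), Psmg4 (-0.84) and Psme4 (-0.80). Without cells 9, 13, 23 and 34, 7 of the 10 stayed (20.3% of genes) and Psmc4, Psmc6 and Psmd13 left, and Psme4 was the 1 member lower (26% of genes).

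Of the 9 base genes 8 had a ratio by Klf1 above 0, where 51.9% of all genes did. This was not particular to the base. The ratio was above 0 in 7 of 7 alpha, 5 of 7 beta, 7 of 8 lid and 2 of 4 activator genes. It was also above 0 in 2 of 4 core and 3 of 3 base assembly chaperones. The base sum was 2682 ± 530 CPM at or above the Klf1 median and 1903 ± 643.5 below, and the core summed to 4522 ± 781 and 3994 ± 1484. Psmc2 (chr5:21785283-21803787) ranged from 32.6 through 225 to 433 CPM in the upper class and from 0 through 141 to 329 CPM in the lower. Psmd1 lay above the lower class's median in 23 of 25 cells, with means of 347 ± 169 and 185 ± 166 CPM. The base sum had a correlation of 0.551 with Klf1, the lid 0.372, the activators 0.401 and the core 0.348. Within Cd34-low cells alone, 8 members were at least 1.5-fold higher at or above the Klf1 median (27% of genes) and 6 lower (17.2%). Without cells 9, 13, 23 and 34, Psmc3ip and Psmd10 were higher there (18.6% of genes) and Psme4 and Psmg1 lower (17.8%).

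By rank over all cells, 19 of the 45 members had a correlation of at least 0.3 with Klf1, against 26.3% of genes, and 16 had one of -0.3 or below with Cd34, against 20.3% of genes. In the other direction 0 members reached -0.3 with Klf1 (4.18% of genes) or 0.3 with Cd34 (6.33%). Psmc3ip (0.577), Psmd4 (0.551) and Psme3 (0.513) were the highest with Klf1, and Psme3 the lowest with Cd34 (-0.559).

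The members tended to vary together over cells. The median Spearman correlation over the 990 pairs of members was 0.186, from -0.337 to 0.565, beside 0.0626 over all pairs of genes that passed the filter. Of the pairs 88.0% were above 0 (64.6% for all genes) and 24.4% reached 0.3 (7.42%). Above a mean level of 100 CPM the medians were 0.195 for 36 members and 0.0698 for 2313 genes. Depth and cell class are shared by all pairs, and single pairs of this size in sparse counts are not read here.

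The pairs with the highest correlation were Psmb4 with Psmf1 (0.565), Psmg3 with Psmf1 (0.563) and Psma2 with Psmg3 (0.560). Psmg4 had the lowest median correlation with the other members (-0.045). By role, the median was 0.264 within the base, 0.243 within the lid, 0.195 within the alpha and 0.220 within the beta subunits, and 0.313 over the 6 pairs of activators. Between alpha and beta subunits it was also 0.220. The 3 pairs of base chaperones had a median of 0.0235.

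**Figure D5:**
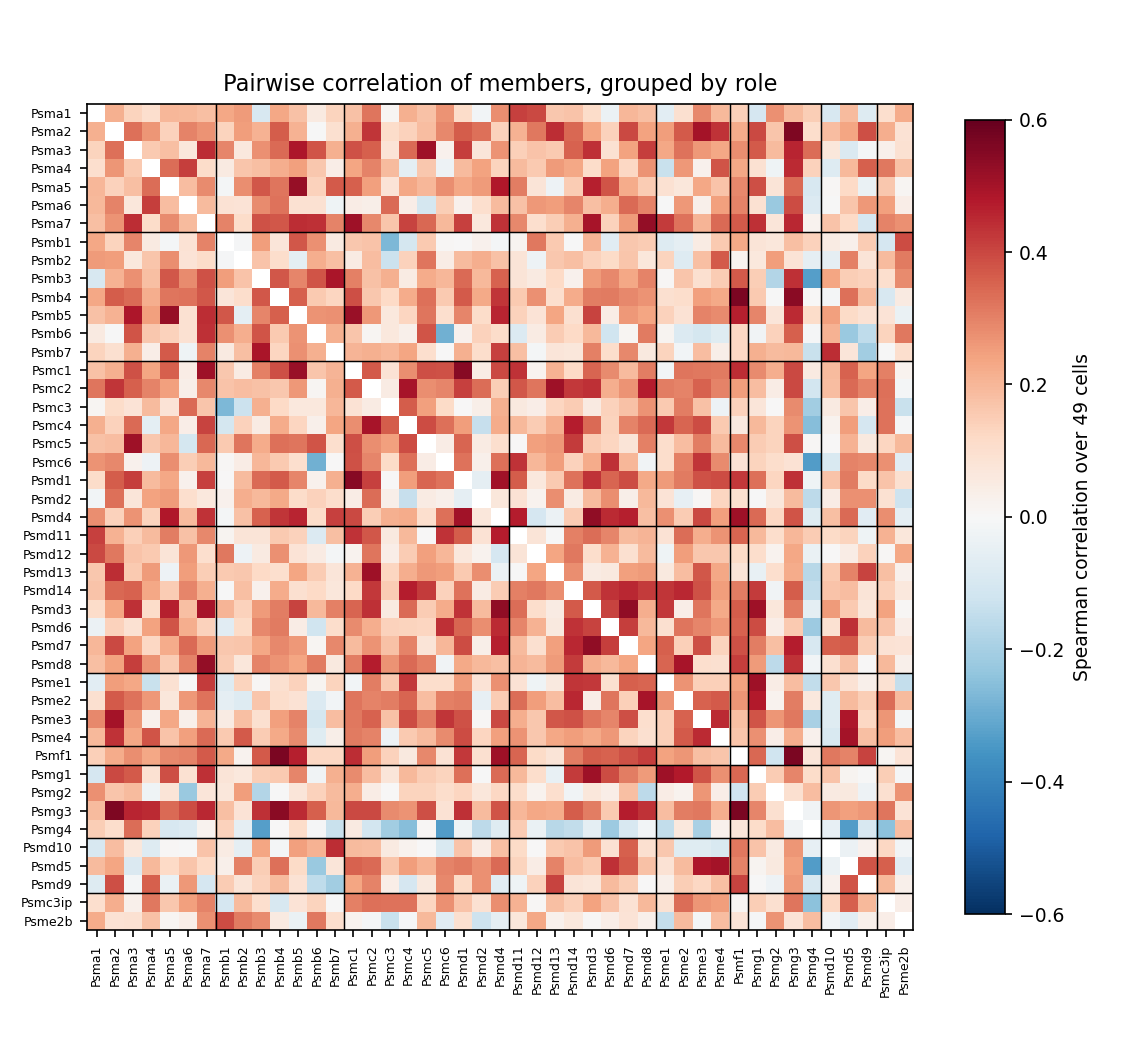
Spearman correlation over 49 cells for each pair of the 45 members that passed the filter, ordered and boxed by role (blue below 0, red above 0). Red dominates throughout, with 88.0% of pairs above 0, and the line of Psmg4 holds many blue squares.

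Summed by particle, the levels followed each other over cells. The alpha and beta sums had a correlation of 0.689 over cells, the core and base 0.647, the base and lid 0.640 and the core and lid 0.570. The activators had 0.233 with the core, 0.443 with the base and 0.446 with the lid. Within Cd34-low cells the values were 0.529 for alpha and beta, 0.590 for core and base, 0.399 for base and lid and 0.325 for core and lid. The core and activators had 0.0838 there. Each of these 5 values was above 0 and smaller than over all cells.

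The members varied moderately from cell to cell. Their median coefficient of variation was 0.687, beside 1.43 for all genes. Among genes with a mean of 100 to 500 CPM it was 0.669 for 36 members and 0.848 for 2065 genes. The most variable members were Psme2b (4.85), Psme4 (2.05) and Psmd12 (1.76). For Psmd12 the value was 0.585 without cells 9, 13, 23 and 34.

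Cell 9, with 85519 reads, held the highest level of 8 subunits (Psma1, Psmb1, Psmb2, Psmb6, Psmc5, Psmd12, Psmg2 and Psmg4) while 26 of the 45 subunits had no read in it. Cell 34 held the highest level of Psmb3, Psmb7 and Psma8, with 11 subunits at 0. Fewer members were detected in Cd34-high cells, which were also shallower. The median number detected was 39.5 in Cd34-high and 44 in Cd34-low cells. With every cell thinned to 85519 reads it was 32.5 and 42. Thinning equalises the reads and not the molecules caught from each cell, and the part of depth was not tested.

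Of 21 other genes of the pathway, 20 passed the filter, and 8 were at least 1.5-fold lower and 1 higher in Cd34-high cells (29.3% and 29.5% of genes). The 8 were Nfe2l1, the transcription factor that induces proteasome genes (17.99 ± 32.3 against 67.9 ± 86.7 CPM, log2 ratio -1.86), its protease Ddi2 (-2.33) and its deglycosylase Ngly1 (-0.64). The others were the proteasome-bound proteins Txnl1 (-1.46), Usp14 (-0.84) and Ecpas (-1.19), the ubiquitin shuttle Ubqln1 (-1.55) and Nploc4 (-1.63), a cofactor of the segregase Vcp. Vcp itself stood at -0.18. Over the 49 cells the Spearman correlation with the summed subunit level was 0.0815 for Nfe2l1, 0.0488 for Ngly1 and 0.586 for Ddi2. The receptor Adrm1 and the maturation factor Pomp, which also act with the complex, were at 0.46 and 0.51. The 1 gene higher was Akirin2 (0.93), which carries proteasomes into the nucleus. Akirin2 lay near the filter of 5 CPM, at 11.5 ± 21.4 against 5.59 ± 8.71 CPM. Its rank correlations were -0.0598 with Cd34 and 0.161 with Klf1, opposite in sign to its ratios by these genes. The ubiquitin gene Ubb was at 0.03. By Klf1 level 8 were at least 1.5-fold higher and 1, Akirin2 (-0.88), lower (24% and 25.4% of genes).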

How the data were processed

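The authors deposited estimated counts (expected counts, 4.23% of them not whole numbers) for 28786 genes in 52 cells. Per the submitters' processing notes, trimming used Trim Galore 0.5.0, quantification used Salmon 0.03.1 and the build was GRCm38. None of strandedness, filtering, transcript set or the summing of transcripts per gene was given in the sources used here. Salmon splits reads of near-identical genes by a model, so the levels of Psme2 and Psme2b are uncertain, as are those of overlapping genes.

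The estimated counts, rounded to whole reads, were divided by the cell's total to give CPM. Levels between genes were also divided by the length of the longest principal coding transcript in GENCODE M21 (GRCm38), which gave symbols and coordinates. Kept cells had 50000 reads or more, 1000 or more detected genes and no more than 20% mitochondrial reads. Genes entered comparisons if their mean reached 5 CPM and 10 or more cells had a read (9158 genes). Ratios are log2 of the mean CPM + 1 of each class, and 1.5-fold was the size rule. With 1 sample there is no test, and Clopper-Pearson intervals at 95% cover counting error only, since amplified reads lack molecular identifiers and do not count molecules. No doublet caller was run on 52 wells. The scripts, in Python 3.11.15 with pandas 2.3.3 and scipy 1.17.1, were tested on simulated data.

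Every member is named, with full values for the highest and lowest of each role per length, the catalytic genes, the 3 highest and 3 lowest ratios, the 3 most and least variable members and the extreme correlations. The members and gene lists were chosen with earlier results of these data known. Alternatives covered scaling, cells, depth, filters, cuts, fold and the measure of correlation. The sequences came from RefSeq promoters (GRCm38.p6), which matched 39 of the 47 members.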

Additional observations from a re-analysis of the deposited data

Results flagged for a closer look

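The 3 cells left out of the main comparisons also held proteasome reads. Cell 5, with a mitochondrial share of 28.3%, held 922 reads of the 45 subunit genes among 307220, a summed level of 3001 CPM, below the lowest kept cell. Cell 10 held 321 among 39692 reads, 8087 CPM over 16 of the 47 members. Cell 12 held 224 among 32439 reads, 6905 CPM over 37 of them. The limit of 3 counts stood at 9.76, 75.6 and 92.5 CPM in these cells.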

How the results depend on the processing

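No paired analysis was possible because all cells carry 1 label and there are no groups that share replicate numbers. No count, median or correlation over all kept cells reversed its direction in an alternative. Without cells 9, 13, 23 and 34, Psmd9 of the 44 members that still passed the filter changed the sign of its Cd34 ratio (to -0.04), and 10 changed that of their Klf1 ratio: Psma6, Psmb1, Psmb4, Psmb6, Psmc5, Psmd2, Psmd9, Psmd12, Psmg1 and Psmg2. Of these, 0 had been past 1.5-fold. Within Cd34-low cells the correlation of the sum with Klf1 was -0.0109. With median-of-ratios size factors, the median of all genes by Cd34 moved to 0.16 on the log2 scale, and the members' median was -0.45. With these factors 15 members were 1.5-fold lower in Cd34-high cells (25.2% of genes). By Klf1, 5 were lower (28.1% of genes) and 10 higher (22.3%). With all 52 cells, 16 members were higher with Klf1. Without cells 9, 13, 23 and 34, 1 was lower with Klf1. The median pairwise correlation was 0.299 or 0.281 as Pearson's r of log2(CPM + 1) or log2(CPM + 10). With 1 read of Cd34 in place of 10 CPM, 14 members were lower. Other cuts on Klf1 gave 21 higher (highest against lowest 16 cells), 23 (500 CPM) and, added after the data were seen, 24 with a median of 0.67 (200 CPM). Within Cd34-low cells 6 were lower (17.2% of genes) and the median was 0.15, against 0.19 over all genes. Without the 4 cells as well, an added alternative, 2 were higher (18.6% of genes) and the median was 0.0403. At 2-fold, 4 of the 45 members were lower with Cd34, where 18.3% of genes were. They were Psme3, Psmg2, and Psmc3ip and Psme2b, which are outside the complex. By Klf1, 1 member was 2-fold higher (11.6% of genes) and 1 lower (16.3%). A difference of mean log2(CPM + 1) weights cells without a read, and moved the median of all genes to -0.71 by Cd34 and 0.77 by Klf1. By this measure 37 members were lower with Cd34 (54.4% of genes) and 40 higher with Klf1 (56.9%). The members' medians were -1.40 and 1.24. Without cell 9, an added alternative, Psmg4 was higher with Cd34 (1 member, 29.3% of genes) and 6 were higher with Klf1 (20.8% of genes). Leaving out each of the 49 cells in turn gave 18 (without cell 27) to 27 (without cell 21) members lower with Cd34, and 6 (without cell 9) to 13 (without cell 3) higher with Klf1. The correlation of the summed level with Cd34 lay between -0.559 and -0.482, and with Klf1 between 0.455 and 0.514, over 6 alternatives each. Depth limits the low members: at 85519 reads per cell, 42 in place of 45 members were read in at least 50% of cells.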

Other observations

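The 10 genes outside the lists with the highest median Spearman correlation with the members over the 49 cells were, in order, Phb2 (0.410), Exosc8, Atp5g3, Add2, Atp5g1, Hspd1, Dut, Cyc1, Eif5a and C1qtnf12 (0.359). They were ranked on these data, so the order is a description. Phb2 is a prohibitin of the inner mitochondrial membrane, Atp5g1 and Atp5g3 encode a ring subunit of the ATP synthase, Cyc1 a subunit of complex III, and Hspd1 the mitochondrial chaperonin. Phb2 reached a correlation of at least 0.3 with 30 of the 45 members and Hspd1 with 32. Eif5a, a translation factor, was the most abundant of the 10 at 2599 ± 862 CPM (SD, n = 49 cells). Each of the 10 had a correlation with Klf1 between 0.425 (Eif5a) and 0.683 (Dut), and with Cd34 between -0.653 (Phb2) and -0.402 (Atp5g3). Their correlations with total reads ran from 0.198 (Cyc1) to 0.578 (Add2), and the part of depth was not tested.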
